A study of Mus musculus with 6 samples.

Results

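Convergent amino acid clonotypes are TCR-β CDR3 sequences that the T cells of 1 mouse encoded in several different ways at the nucleotide level. An amino acid clonotype was a coding CDR3 amino acid sequence together with its Trbv and its Trbj gene, and it was called convergent where 3 or more distinct CDR3 nucleotide sequences (nucleotide variants) encoded it in a single spleen library. The members were thus chosen by a measured value, the number of nucleotide variants per clonotype. There were 1627, 2566 and 854 convergent clonotypes among the 99882, 125528 and 72443 amino acid clonotypes in the spleens of mice 1, 2 and 3. Across the 3 spleens 4025 of 263979 distinct amino acid clonotypes were convergent in at least 1 spleen. They are compared below with the clonotypes of the same spleen that had 1 nucleotide variant, which numbered 92439, 114711 and 68043.

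CD4+ T cells were taken from the spleen and the left kidney of 3 C57BL/6 wildtype mice, which gave 6 libraries, 1 per organ and mouse. In every mouse the right ureter was obstructed reversibly (RUUO) from day 0 to day 6 and the left ureter was ligated (UUO) on day 17, and both organs were harvested on day 22, so no untreated mouse enters the comparisons. Cells were enriched with magnetic beads and sorted by FACS, and TCR-β mRNA was amplified by 5′ RACE, in which each mRNA molecule receives a random tag (unique molecular identifier, UMI) during reverse transcription. The files hold TCR-β sequences only, so the CD4+ label could not be checked against other markers. The coding clones of the spleens held 160179, 224811 and 97735 UMIs in mice 1, 2 and 3, at 13.01, 8.53 and 21.2 reads per UMI. The kidney libraries were far smaller, with 773, 1248 and 693 UMIs, so an amino acid clonotype with 0 UMIs may still make up 0.388%, 0.240% and 0.433% of the kidney libraries of mice 1, 2 and 3 (a limit of 3 counts, which like the intervals below covers counting error only). UMIs count mRNA molecules, and a larger number of cells cannot be told apart from more TCR-β mRNA per cell.

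A TCR-β chain is made in the thymus by joining a V, a D and a J gene segment. Nucleases trim the segment ends, short palindromic bases can be left at the ends, and the enzyme TdT adds bases without a template before the ends are ligated. The CDR3 spans these joints and makes most of the contact with the peptide on the MHC molecule. Because most amino acids have several codons, different joining events can yield the same receptor protein, which is called convergent recombination.

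The nucleotide variants of the clonotype with the most variants over the 3 spleens are shown first, because they show at which bases convergent clonotypes differ. This clonotype, called clonotype A here, used Trbv1 (chr6:40891296-40891885, GRCm38.p6) and Trbj2-7 (chr6:41543810-41543856). It had 10, 13 and 8 nucleotide variants and 31, 48 and 14 UMIs in the spleens of mice 1, 2 and 3. The 8 variants with the most UMIs in the spleen of mouse 2 are printed 5′ to 3′, and capitals mark the bases at which they differ.
Clonotype A in spleen 2, variant 1, 7 UMIs: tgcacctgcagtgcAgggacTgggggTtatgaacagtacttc
Clonotype A in spleen 2, variant 2, 7 UMIs: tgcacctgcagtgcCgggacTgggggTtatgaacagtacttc
Clonotype A in spleen 2, variant 3, 6 UMIs: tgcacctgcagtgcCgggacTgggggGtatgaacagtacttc
Clonotype A in spleen 2, variant 4, 5 UMIs: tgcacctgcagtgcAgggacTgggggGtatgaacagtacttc
Clonotype A in spleen 2, variant 5, 5 UMIs: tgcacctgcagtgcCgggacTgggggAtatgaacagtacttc
Clonotype A in spleen 2, variant 6, 4 UMIs: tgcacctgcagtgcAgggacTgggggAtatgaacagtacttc
Clonotype A in spleen 2, variant 7, 3 UMIs: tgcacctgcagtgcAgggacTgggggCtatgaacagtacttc
Clonotype A in spleen 2, variant 8, 3 UMIs: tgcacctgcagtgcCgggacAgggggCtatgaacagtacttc

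All 3 variable bases were at the last position of a codon, for alanine, threonine and glycine. The variant assigned to Trbd1 was the only printed one with A at the middle variable base, and the other 7 were assigned to Trbd2. Over the 3 spleens the clonotype was encoded by 18 distinct nucleotide sequences, of which 3 were present in all 3 spleens.

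Clonotype B, with Trbv3 (chr6:41048394-41048824) and Trbj2-7, came next in the number of variants. It had 10, 8 and 9 variants in the spleens of mice 1, 2 and 3 and carried the most UMIs of any convergent clonotype in the spleens of mice 1 and 3, with 116 and 60 UMIs, beside 94 UMIs in mouse 2. Its 8 leading variants in the spleen of mouse 1 are shown because they differ over a longer stretch, in which serine is encoded by codons of both of its codon families.
Clonotype B in spleen 1, variant 1, 51 UMIs: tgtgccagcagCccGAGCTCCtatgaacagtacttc
Clonotype B in spleen 1, variant 2, 28 UMIs: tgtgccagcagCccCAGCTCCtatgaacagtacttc
Clonotype B in spleen 1, variant 3, 17 UMIs: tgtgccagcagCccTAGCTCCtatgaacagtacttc
Clonotype B in spleen 1, variant 4, 8 UMIs: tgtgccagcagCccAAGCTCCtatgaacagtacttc
Clonotype B in spleen 1, variant 5, 6 UMIs: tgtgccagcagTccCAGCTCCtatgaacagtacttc
Clonotype B in spleen 1, variant 6, 2 UMIs: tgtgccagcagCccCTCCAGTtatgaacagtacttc
Clonotype B in spleen 1, variant 7, 1 UMI: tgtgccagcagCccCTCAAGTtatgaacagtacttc
Clonotype B in spleen 1, variant 8, 1 UMI: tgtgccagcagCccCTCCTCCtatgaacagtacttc

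The same variant led in all 3 mice, with 51, 36 and 20 UMIs, and the next had 28, 29 and 18 UMIs. Of the 8 printed variants only variant 6 had a D gene assigned, which was Trbd2. In contrast, the third by number of variants, clonotype C with Trbv1 and Trbj1-1 (chr6:41533864-41533911), was spread more evenly, with 6, 11 and 9 variants and 22, 31 and 22 UMIs. Its 8 leading variants in the spleen of mouse 2 differed at 3 bases, each the last base of a codon.
Clonotype C in spleen 2, variant 1, 9 UMIs: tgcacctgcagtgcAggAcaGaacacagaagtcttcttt
Clonotype C in spleen 2, variant 2, 7 UMIs: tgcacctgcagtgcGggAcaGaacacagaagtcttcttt
Clonotype C in spleen 2, variant 3, 4 UMIs: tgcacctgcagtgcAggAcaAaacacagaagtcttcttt
Clonotype C in spleen 2, variant 4, 2 UMIs: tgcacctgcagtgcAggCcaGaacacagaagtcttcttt
Clonotype C in spleen 2, variant 5, 2 UMIs: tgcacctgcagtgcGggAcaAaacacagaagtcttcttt
Clonotype C in spleen 2, variant 6, 2 UMIs: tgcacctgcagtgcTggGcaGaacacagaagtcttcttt
Clonotype C in spleen 2, variant 7, 1 UMI: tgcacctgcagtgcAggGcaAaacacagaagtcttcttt
Clonotype C in spleen 2, variant 8, 1 UMI: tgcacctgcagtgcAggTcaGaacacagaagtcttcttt

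The number of clonotypes fell steeply with the number of variants, as the plot of variants per clonotype shows. Those just inside the threshold, with exactly 3 variants, numbered 1094, 1706 and 621 in mice 1, 2 and 3, and those just outside it, with 2 variants, numbered 5816, 8251 and 3546. The most variants of any clonotype were 12, 13 and 9. Convergent clonotypes made up 1.63%, 2.04% and 1.18% of the amino acid clonotypes, and they held 6.59%, 8.36% and 4.504% of the UMIs. The order of the mice followed the depth of their spleens. When the spleens were drawn at random to the 97735 UMIs of the smallest, the numbers were 817, 854 and 854, so the mice differed little at equal depth. All of these values belong to the choice of the members and were not tested.

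**Figure D1:**
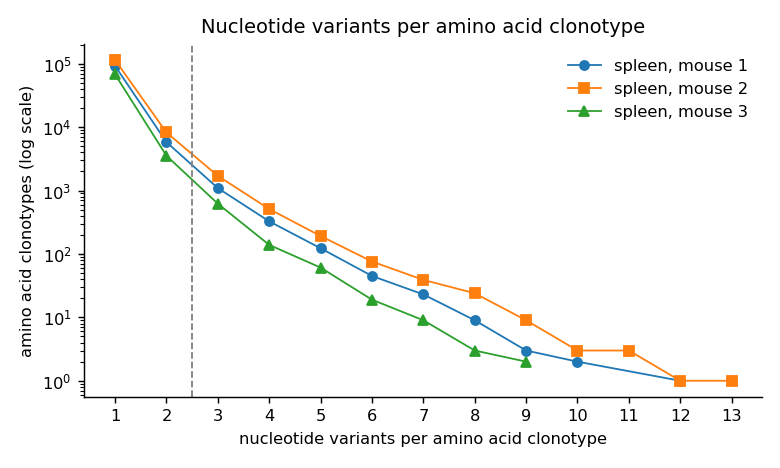
Number of amino acid clonotypes (log scale) by the number of nucleotide variants that encoded them, for the spleens of the 3 mice. Clonotypes to the right of the dashed line are convergent, and the highest numbers of variants are 12, 13 and 9 in mice 1, 2 and 3.

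Most differences between variants lay at the joints, but this was largely set in advance. A base inside the V or J part of every variant could differ only by a mismatch in the alignment. Likewise, variants of a clonotype encode the same amino acids, so most changes fall at the last base of a codon. Of the CDR3 bases that varied within a convergent clonotype, 91.0%, 91.0% and 90.0% in mice 1, 2 and 3 lay between the end of the V part and the start of the J part, and 87.1%, 85.9% and 86.8% were at the last base of a codon. Glycine codons made up 36.1% ± 0.532 (SD, n = 3) of the codons that varied and alanine codons 13.3% ± 0.672. Pairs of variants of the same clonotype were 1 base apart in 39.4%, 39.7% and 41.1% of cases and 3 or more bases apart in 20.0%, 21.0% and 19.4%, with up to 8 bases between them.

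Of the variants of convergent clonotypes 73.9%, 74.3% and 74.2% lay 1 base from another variant of the same clonotype. Those that were 1 base from a variant of the same clonotype with at least 5 times as many UMIs numbered 214, 429 and 51, which was 3.71%, 4.65% and 1.73% of the variants of convergent clonotypes. Merging them into the larger variant left 1544, 2403 and 833 convergent clonotypes. This step reaches only clonotypes in which a variant had at least 5 UMIs, and the part of PCR or sequencing errors among the other close variants was not tested. The share of variants with a lowest CDR3 quality score under 30 was 0.347%, 0.640% and 0.136% in convergent clonotypes and 0.360%, 0.713% and 0.176% in those with 1 variant. The reads per UMI were also close, at 12.7, 8.35 and 21.0 against 13.1, 8.57 and 21.2. Clonotypes in which every variant rested on 1 UMI made up 22.4%, 16.1% and 34.5% of the convergent ones, and 223, 517 and 54 clonotypes remained convergent when variants needed at least 2 UMIs.

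Convergent clonotypes had shorter CDR3s. The mean length was 13.5, 13.5 and 13.4 amino acids in mice 1, 2 and 3, against 13.9 in each mouse for clonotypes with 1 variant. The mean difference was -0.467 amino acids ± 0.0513 (SD, n = 3 mice), lower in 3 of 3 mice (exact two-sided sign-flip permutation test over mice, p = 0.25). With 3 mice this test cannot give a p below 0.25. There were 6 such comparisons of the classes, and after Benjamini-Hochberg adjustment over them every p was 0.25 as well. The difference lay at the long end, since CDR3s of over 15 amino acids made up 2.09%, 2.10% and 1.99% of convergent clonotypes and 10.97%, 11.2% and 10.8% of the others. Lengths of 12 to 14 amino acids held 77.6%, 77.2% and 78.2% of convergent clonotypes, against 62.3%, 62.0% and 62.7%. Clonotypes with 2 variants lay between the classes, at a mean length of 13.55 amino acids, with 3.44% over 15 amino acids.

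Their joints held fewer inserted bases, meaning CDR3 bases that the alignment placed in neither the V, the D nor the J part. The mean per nucleotide variant was 2.09, 2.14 and 2.00 bases in convergent clonotypes of mice 1, 2 and 3 and 3.27, 3.30 and 3.21 bases in clonotypes with 1 variant. The values of the classes did not overlap, and the mean difference was -1.18 bases ± 0.0280 (SD, n = 3 mice; exact sign-flip permutation test, p = 0.25). Variants with no inserted base made up 26.4%, 25.6% and 28.4% of those of convergent clonotypes and 11.4%, 11.1% and 12.03% of those of clonotypes with 1 variant. Clonotypes with 2 variants lay between the classes, at a mean of 2.30 inserted bases per variant.

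A D gene was assigned to 58.8%, 59.0% and 58.4% of the variants of convergent clonotypes, against 73.7%, 74.0% and 73.6%. Where none is assigned, D bases that were present count as inserted, so the comparison was repeated on variants with an assigned D, where the mean difference was -1.56 bases. Among CDR3s of 14 amino acids, where length is equal, it was -1.21 bases. Both restrictions were chosen after the data were seen. Inserted bases here are an alignment result and not a direct count of bases added by TdT.

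Trimming of the segment ends was also shorter. The V part lacked a mean of 1.49, 1.57 and 1.505 germline bases at its end in convergent clonotypes and 2.54, 2.56 and 2.53 bases in the others. For the J part the means were 2.14, 2.16 and 2.15 against 2.92, 2.92 and 2.90 bases. Clonotypes with 2 variants lay between the classes, at means of 1.93 bases for the V part and 2.31 for the J part. Variants that kept palindromic bases made up 32.4%, 32.8% and 32.3%, against 27.1%, 27.0% and 27.0%. Among variants assigned to 1 D gene, Trbd1 (chr6:41533201-41533212) rather than Trbd2 (chr6:41542163-41542176) was used by 44.1%, 50.3% and 43.2% of those of convergent clonotypes and by 56.4%, 57.2% and 55.3% of the rest.

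**Figure D2:**
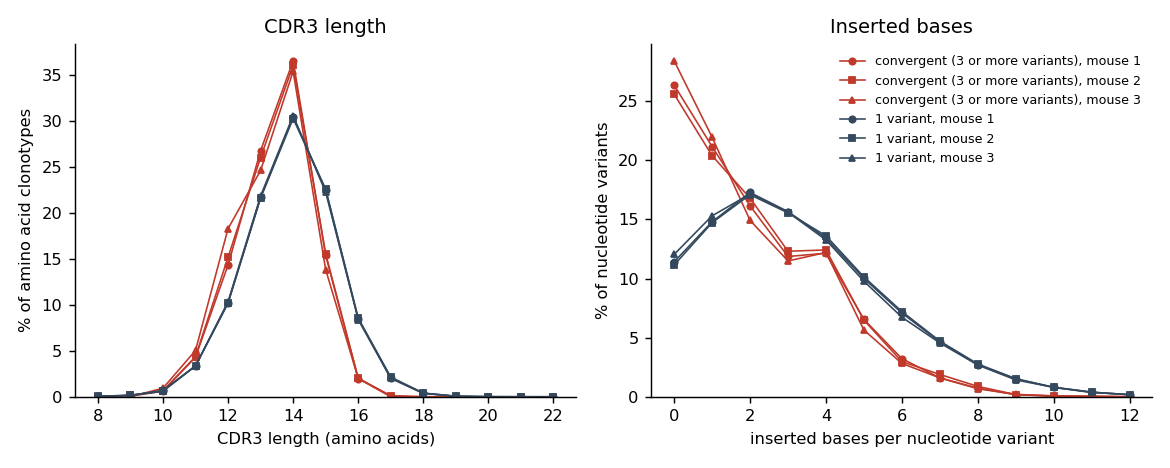
Distribution of CDR3 length over amino acid clonotypes (left, % of clonotypes) and of inserted bases over nucleotide variants (right, % of variants), for convergent clonotypes (red) and those with 1 variant (dark) in the spleens of the 3 mice. The mean length is 13.4 to 13.5 against 13.9 amino acids, and convergent clonotypes have no inserted base in 25.6% to 28.4% of variants against 11.1% to 12.03%. The few lengths and insertions beyond the axes are not drawn.

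The residues encoded at the joints differed in kind. Glycine, the residue that every reading frame of the guanine-rich D genes can supply, made up 45.7% ± 1.05 (SD, n = 3) of the residues between the V and J ends in convergent clonotypes and 32.1% ± 0.25 in those with 1 variant. Aspartate (8.35% against 7.15%) and alanine (6.97% against 5.98%) were also more frequent. Arginine (7.16% against 10.1%), proline (2.55% against 5.22%), serine (3.38% against 5.22%), valine (1.04% against 2.85%) and threonine (5.47% against 7.08%) were less frequent. Lysine (0.155% against 1.32%) and histidine (0.0917% against 1.13%), were rare. The number of nucleotide sequences that can encode a CDR3 depends on its residues, so these shares are tied to the rule and were not tested.

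**Figure D3:**
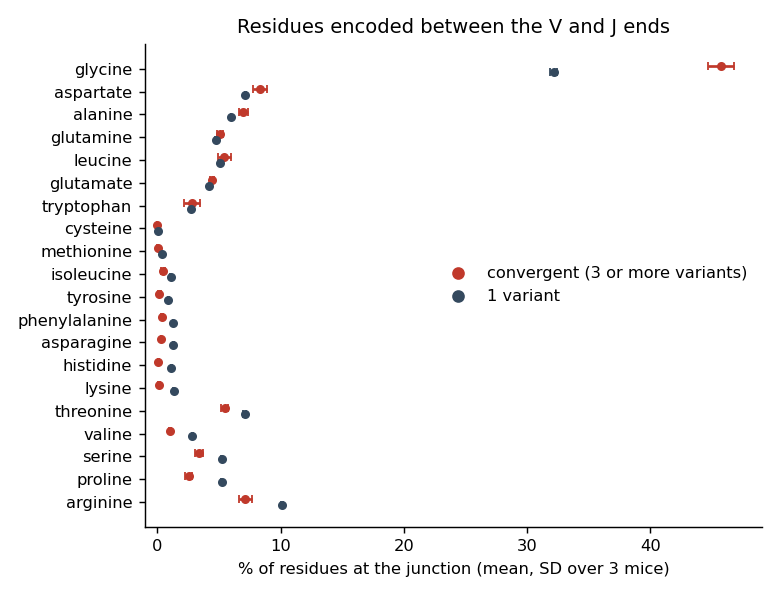
Amino acid residues encoded between the V and J ends as a share of all such residues (x axis, %), for convergent clonotypes (red) and those with 1 variant (dark). Points are means and bars SDs over 3 mice, and glycine stands out at 45.7% against 32.1%.

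Use of V genes differed between the classes for most genes. Of 24 Trbv genes tested, 21 (87.5%) had an adjusted p under 0.05 in edgeR's quasi-likelihood test on numbers of amino acid clonotypes, with the mouse as a block. The share was higher in convergent clonotypes for 5 genes (20.8%) and lower for 16 (66.7%). This split depended on the scaling, since TMM normalization gave 7 higher and 14 lower and DESeq2 gave 7 higher and 7 lower. Relative to library sizes alone, where the median log2 fold change of all 24 genes was -0.96, the median shift per gene was 0.42 and 0.72 with these scalings. Trbv15 turned direction with TMM normalization and with DESeq2, and Trbv13-3 turned with DESeq2. Clonotypes that share a gene are not independent of each other, and the mice are the replicates. Gene use is also tied to the rule, since a clonotype includes its genes and more sampled sequences make 3 variants easier to reach. The 5 genes with a higher share each made up 7.17% to 10.7% of clonotypes with 1 variant, and Trbv30 and Trbv24 0.282% and 0.210%. Trbv13-3 and Trbv13-1 had a lower share although they made up 8.96% and 7.55%. The part of gene frequency in these differences was not tested.

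Trbv1 showed the largest excess. It was used by 20.4% ± 2.44 (SD, n = 3) of convergent clonotypes and 9.79% ± 0.545 of those with 1 variant, a log2 fold change of 1.03 (edgeR, adjusted p = 1.88e-05). Of all Trbv1 clonotypes 3.21% ± 0.666 were convergent. Trbv13-2 (chr6:41121396-41121832) followed, with 17.9% ± 1.33 against 10.7% ± 0.429 (log2 fold change 0.74, edgeR adjusted p = 1.88e-05). Trbv5 (chr6:41062359-41062803) made up 12.1% against 8.97%, Trbv3 8.85% against 7.48% and Trbv31 8.54% against 7.17%, with log2 fold changes of 0.43, 0.29 and 0.29.

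Not all of these held among clonotypes with similar numbers of UMIs. Among clonotypes with 3 to 5 UMIs in the spleen the log2 fold change of Trbv1 turned to -0.25 (edgeR, adjusted p = 0.228), whereas that of Trbv13-2 was 0.97 (adjusted p = 0.000232) and that of Trbv31 was 1.60 (adjusted p = 0.000431). Of the called genes, Trbv19, Trbv2 and Trbv26 turned direction there too.

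At the other end, Trbv30 and Trbv24 had no convergent clonotype in any spleen, beside 784 and 591 clonotypes with 1 variant. Set against a limit of 3 clonotypes over the 3 spleens, their shares were at least 4.79-fold and 3.61-fold lower in convergent clonotypes (edgeR, adjusted p = 0.00111 and 0.00119). Trbv21 also had none, but its 117 clonotypes with 1 variant were too few for a bound, and its edgeR adjusted p of 0.0419 became 0.0908, 0.193 and 0.548 without mouse 1, 2 and 3. Trbv29 and Trbv14 (chr6:41135167-41135616) had 6 and 9 convergent clonotypes in all, with log2 fold changes of -3.62 and -3.13 (edgeR, adjusted p = 0.00028 for both). At 3 to 5 UMIs the edgeR adjusted p was 0.0319 for Trbv29, 0.0528 for Trbv14 and 0.498 for Trbv30, and Trbv24 had too few clonotypes there to be tested. Without mouse 3 the adjusted p was 0.224 for Trbv30 and 0.246 for Trbv24.

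Use of J genes differed less, and it is tied to the rule in the same way as use of V genes. Of 12 Trbj genes 9 (75%) had an adjusted p under 0.05, with a higher share in convergent clonotypes for 4 (33.3%) and a lower share for 5 (41.7%). Trbj2-7 made up 22.1% ± 2.13 (SD, n = 3) of convergent clonotypes and 16.4% ± 0.239 of those with 1 variant (log2 fold change 0.39, edgeR adjusted p = 0.00616). Trbj1-1, Trbj2-5 and Trbj2-3 had log2 fold changes of 0.30, 0.24 and 0.23, and the last pair no longer passed among clonotypes with 3 to 5 UMIs (edgeR, adjusted p = 0.0986 for both). Trbj1-5 had the lowest ratio, with 0.905% ± 0.0786 against 3.14% ± 0.191 (log2 fold change -1.78, edgeR adjusted p = 5.55e-05). Trbj1-4, Trbj1-6, Trbj2-1 and Trbj2-2 had log2 fold changes of -0.78, -0.71, -0.63 and -0.56. Leaving out a mouse ended the call of Trbj2-3 (edgeR, adjusted p = 0.183 without mouse 1 and 0.131 without mouse 2) and of Trbj1-4 (adjusted p = 0.0578 without mouse 2).

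Among pairs of V and J genes, convergent clonotypes most often joined Trbv13-2 to Trbj2-7, at 4.21% ± 0.412 (SD, n = 3) against 1.79% of clonotypes with 1 variant. Trbv1 with Trbj2-7 followed at 3.87% against 1.47%, and Trbv1 with Trbj1-1 at 3.26% against 1.11%. Convergent clonotypes used 164, 184 and 140 of the 280, 282 and 278 V and J pairs seen in the spleens of mice 1, 2 and 3.

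**Figure D4:**
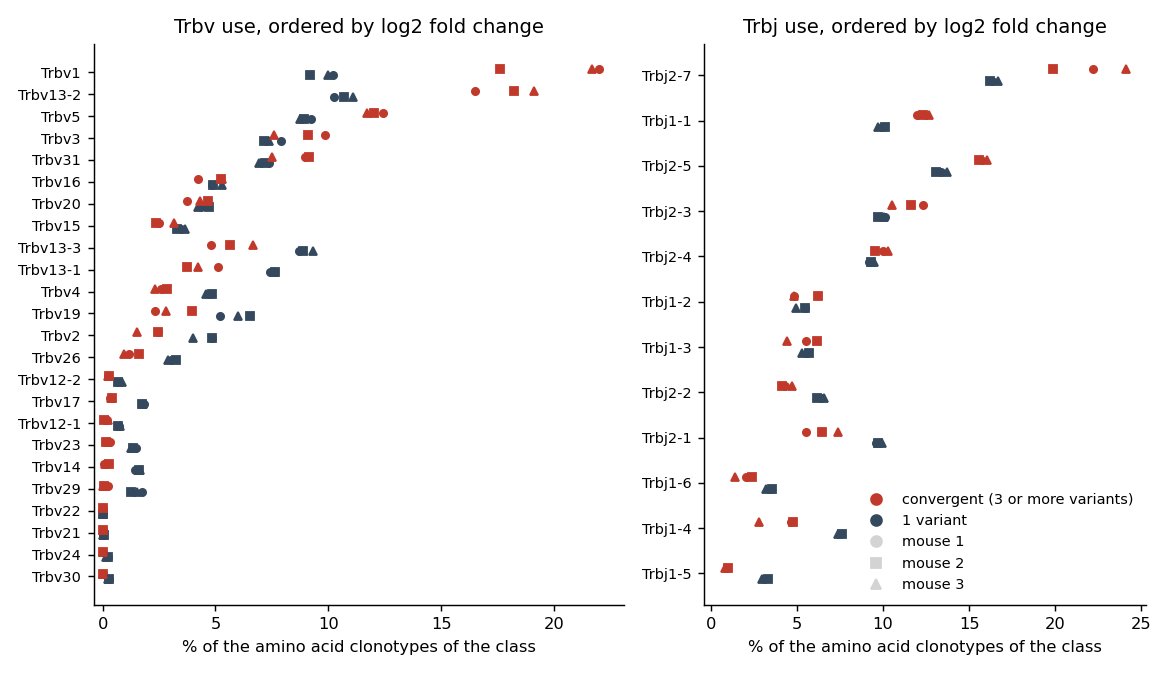
Share of amino acid clonotypes that used each Trbv gene (left) and Trbj gene (right), in % of the class, for convergent clonotypes (red) and those with 1 variant (dark). Each symbol is the spleen of 1 mouse and genes are ordered by log2 fold change. Trbv1, Trbv13-2 and Trbj2-7 lie furthest to the right in convergent clonotypes.

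The mean number of UMIs per nucleotide variant was also higher in convergent clonotypes. It was 1.83, 2.04 and 1.496 UMIs in mice 1, 2 and 3, against 1.42, 1.54 and 1.23 in clonotypes with 1 variant. The mean log2 ratio was 0.35 ± 0.0610 (SD, n = 3 mice), higher in 3 of 3 mice (exact sign-flip permutation test, p = 0.25), although the values of the classes overlapped between mice. Variants with 1 UMI still made up the majority, at 61.2%, 53.9% and 71.2% against 73.5%, 66.5% and 83.0%. Clonotypes with 2 variants had a mean of 1.58 UMIs per variant, between the classes. The leading variant held a median of 42.9%, 45.5% and 40% of the UMIs of its clonotype. In clonotypes with a single leading variant, that variant had a mean of 3.90, 4.25 and 3.04 UMIs. The other variants of the same clonotypes had 1.39, 1.52 and 1.2 UMIs. Taking out the largest variant lowers this mean by itself, so it cannot be set against clonotypes with 1 variant. The leading variants had 1.77 inserted bases ± 0.0802 (SD, n = 3) and the other variants 2.08 ± 0.12, a difference of -0.304 bases with the same sign in 3 of 3 mice (exact sign-flip permutation test, p = 0.25).

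Convergent clonotypes recurred between mice. The spleens of the other mice, which had no part in the choice of members in a given spleen, held on average 73.6%, 67.6% and 81.7% of the convergent clonotypes of mice 1, 2 and 3, against 10.6%, 8.53% and 13.4% of those with 1 variant. The mean log2 ratio was 2.80 ± 0.190 (SD, n = 3 mice; exact sign-flip permutation test, p = 0.25). Among clonotypes with 3 to 5 UMIs it was 2.07, from 67.4% against 16.6%. Of clonotypes with 2 variants and any number of UMIs, an average of 44.5% was found in another spleen. Convergent clonotypes were again encoded by 3 or more variants in another spleen in 27.8% ± 9.91 (SD, n = 3) of cases, against 0.575% ± 0.353 for those with 1 variant. Of the 4025 clonotypes convergent in at least 1 spleen, 592 were convergent in exactly 2 and 215 in all 3, and 1988 (49.4%) were present in all 3.

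Recurrence was also counted for exact nucleotide variants, which is a stricter match than that of the amino acid clonotype. A variant of a convergent clonotype was found in another spleen in 21.9% ± 4.93 (SD, n = 3) of cases and the sequence of a clonotype with 1 variant in 2.72% ± 0.672. Those variants of convergent clonotypes that were found in another spleen had 1.61 inserted bases ± 0.0279 (SD, n = 3), fewer than the 2.21 ± 0.0474 of those that were not. The difference of -0.599 bases had the same sign in 3 of 3 mice (exact sign-flip permutation test, p = 0.25). This was not particular to convergent clonotypes. Sequences found in another spleen had 1.70 inserted bases against 3.30 in clonotypes with 1 variant, and 1.59 against 2.39 in those with 2 variants.

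In the kidney of the same mouse 39, 50 and 14 convergent clonotypes were found, which was 2.40% (95% exact Clopper-Pearson interval 1.71 to 3.26), 1.95% (1.45 to 2.56) and 1.64% (0.899 to 2.74) of those in the spleens of mice 1, 2 and 3. Of clonotypes with 1 variant 192, 319 and 189 were found, or 0.208%, 0.278% and 0.278%. The mean log2 ratio was 2.97 ± 0.503 (SD, n = 3 mice), higher in 3 of 3 mice (exact sign-flip permutation test, p = 0.25). Convergent clonotypes had more UMIs in the spleen, with a median of 5, 6 and 4 against 1 in each mouse, and the rule itself requires at least 3. Clonotypes with 2 variants lay between the classes, with 0.705%, 0.885% and 0.846% found in the kidney of the same mouse.

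At similar numbers of UMIs in the spleen this excess was not seen. Among clonotypes with 3 to 5 UMIs in the spleen, 0.673%, 0.676% and 1.495% of the convergent ones were found in the kidney of the same mouse (6, 8 and 9 clonotypes), against 0.603%, 0.589% and 1.95% of those with 1 variant. The mean log2 ratio was -0.0083, with mouse 3 opposite in sign to mice 1 and 2 (exact sign-flip permutation test, p = 1). The 95% exact intervals of the convergent clonotypes, 0.247% to 1.46%, 0.292% to 1.33% and 0.686% to 2.82%, included the value of the other class in each mouse. Total UMIs were similar but not equal in this range, with means of 3.92, 4.05 and 3.84 in convergent clonotypes against 3.34, 3.38 and 3.28. UMIs per nucleotide variant were far apart, at 1.26 in convergent clonotypes and 3.33 in those with 1 variant. The comparison thus matched clonotypes and not nucleotide variants. At 6 to 10 UMIs, a range chosen after the data were seen, the order was reversed, with 1.59%, 1.63% and 0.957% of convergent clonotypes found against 7.45%, 6.61% and 18.8% of those with 1 variant. The mean log2 ratio was -2.85, lower in 3 of 3 mice (exact sign-flip permutation test, p = 0.25). Above 10 UMIs, 14.2%, 6.5% and 6.98% of convergent clonotypes were found (24, 26 and 3 clonotypes) against 30.8%, 33.8% and 45.9%. This range has no upper end and was not matched, with mean UMIs of 17.3, 16.8 and 14.7 against 26.8, 22.9 and 15.9.

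In the kidneys of the other mice the convergent clonotypes were ahead also at similar numbers of UMIs. An average of 1.14%, 1.05% and 2.05% of the convergent clonotypes of mice 1, 2 and 3 was found there, against 0.0795%, 0.0536% and 0.105% of those with 1 variant, a mean log2 ratio of 4.14 ± 0.261 (SD, n = 3 mice; exact sign-flip permutation test, p = 0.25). At 3 to 5 UMIs the values were 1.01% ± 0.417 and 0.136% ± 0.0885, a mean log2 ratio of 3.01, and at 6 to 10 UMIs they were 1.40% ± 0.684 and 0.434% ± 0.259, a mean log2 ratio of 1.75. Summed over the kidneys of the other mice, these values rest on few finds. They numbered 14, 18 and 18 against 12, 17 and 10 at 3 to 5 UMIs, and 14, 16 and 9 against 2, 5 and 2 at 6 to 10 UMIs.

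The kidney of the same mouse and those of the other mice were then compared directly. For convergent clonotypes the average found over mice was 1.99% in the kidney of the same mouse and 1.41% in the kidneys of the other mice, whereas for clonotypes with 1 variant it was 0.255% and 0.0794%. Over the 6 ways to assign kidneys to spleens, the true assignment gave the highest average in both classes (exact one-sided permutation test, p = 0.167, the smallest possible). The log2 ratio of the same kidney to the other kidneys was 1.08, 0.89 and -0.32 for convergent clonotypes and 1.39, 2.37 and 1.40 for those with 1 variant. The difference between the classes was -1.17 ± 0.758 (SD, n = 3 mice), with the same sign in 3 of 3 mice (exact sign-flip permutation test, p = 0.25).

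**Figure D5:**
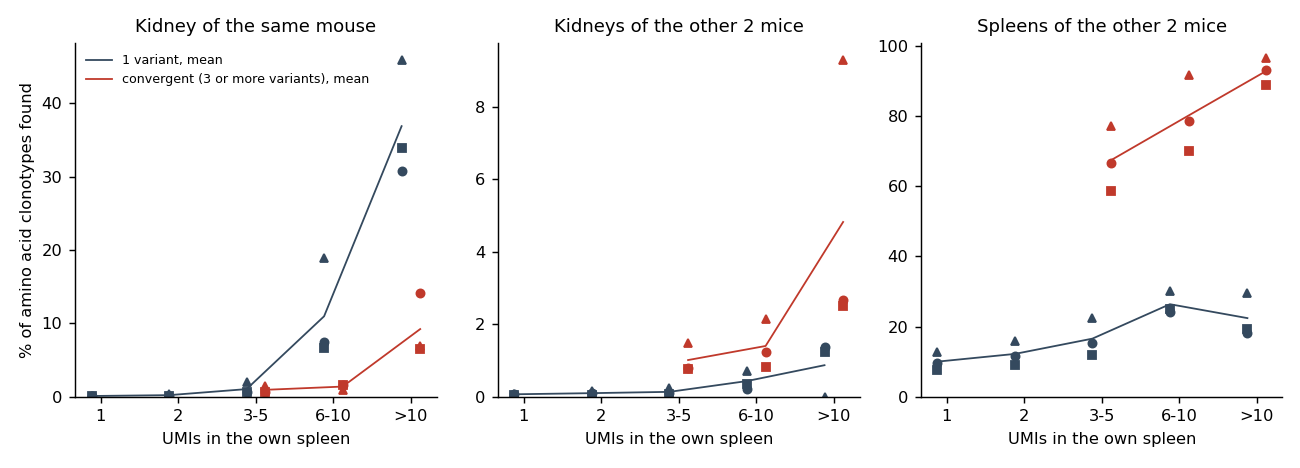
Share of the amino acid clonotypes of a spleen (y axes, %, of different height) found in the kidney of the same mouse, the kidneys of the other mice and the spleens of the other mice, by the number of UMIs in the own spleen (x axis). Circles, squares and triangles are mice 1, 2 and 3 and lines join the means, red for convergent clonotypes and dark for those with 1 variant. Above 5 UMIs the classes stand in opposite order in the left panel (at 6 to 10 UMIs, 10.97% of those with 1 variant against 1.39% of convergent ones) and in the other panels.

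Counted per nucleotide variant, 32, 45 and 11 variants of convergent clonotypes were present as the exact sequence in the kidney of the same mouse, an average of 0.472% ± 0.0916 (SD, n = 3) of their variants, against 0.227% ± 0.0347 for clonotypes with 1 variant. The mean log2 ratio was 1.05 (exact sign-flip permutation test over 3 mice, p = 0.25). Within variants of 1 UMI, where 14 sequences of convergent clonotypes and 160 of the others were found, it was 0.61 (exact sign-flip test, p = 0.5). Within variants of 2 UMIs, where 11 and 90 were found, it was 0.78, higher in 3 of 3 mice (exact sign-flip test, p = 0.25). Within variants of 3 to 5 UMIs it was -0.11 (exact sign-flip test, p = 1). Within variants of over 5 UMIs, where 46 and 234 sequences were found in all, it was -1.04 (exact sign-flip test, p = 0.25). Of the 111 kidney variants that encoded a convergent clonotype 88 had their exact sequence in the spleen of that mouse, compared with 622 of 701 for clonotypes with 1 variant in the spleen.

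Seen from the kidney, convergent clonotypes of the own spleen made up 8.11%, 6.65% and 2.97% of the amino acid clonotypes and 8.02%, 6.17% and 3.32% of the UMIs. They carried 1.59, 1.54 and 1.64 UMIs each in the kidney and those with 1 variant in the spleen 2.04, 1.99 and 1.80. Among the convergent clonotypes, the most kidney UMIs were carried by a clonotype with Trbv1 and Trbj2-7 that had 8 UMIs in mouse 2, one with Trbv3 and Trbj2-7 that had 5 UMIs in mouse 1 and one with Trbv1 and Trbj2-5 that had 4 UMIs in mouse 3. The first of these was uneven in the spleen, where the leading of its 4 variants held 28 of 31 UMIs.

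A few clonotypes had more than 1 nucleotide variant within a kidney as well. Only 10 of the 1705 amino acid clonotypes of the 3 kidneys had 2 or more nucleotide variants there, and 7 of these were among the 103 that were convergent in the own spleen. The share was 5.13%, 8% and 7.14% of the convergent clonotypes found in the kidneys of mice 1, 2 and 3, against 0%, 0.427% and 0% of all other kidney clonotypes (exact sign-flip permutation test over 3 mice, p = 0.25). Clonotype D, with Trbv5 and Trbj2-5, was the only one with 3 variants, of which 2 were present with the same genes in the spleen of mouse 2. The sequence of the other was listed there with Trbv2. Clonotype E, with Trbv13-2 and Trbj2-1, had 2 variants in the kidney of mouse 1, neither found in the spleen of that mouse, and 2 others in the kidney of mouse 3, both found in its spleen. The variants of both clonotypes, chosen for printing after their values were seen, show different nucleotide sequences for the same CDR3 within a kidney and in different mice, with capitals at the bases that differ within a kidney.
Clonotype D in kidney 2, variant 1, 2 UMIs: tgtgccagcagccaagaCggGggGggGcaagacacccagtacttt
Clonotype D in kidney 2, variant 2, 1 UMI: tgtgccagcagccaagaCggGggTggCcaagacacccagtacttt
Clonotype D in kidney 2, variant 3, 1 UMI: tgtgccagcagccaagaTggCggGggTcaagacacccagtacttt
Clonotype E in kidney 1, variant 1, 1 UMI: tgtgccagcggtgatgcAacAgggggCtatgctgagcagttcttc
Clonotype E in kidney 1, variant 2, 1 UMI: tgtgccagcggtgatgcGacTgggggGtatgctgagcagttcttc
Clonotype E in kidney 3, variant 1, 2 UMIs: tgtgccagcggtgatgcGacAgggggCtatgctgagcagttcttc
Clonotype E in kidney 3, variant 2, 1 UMI: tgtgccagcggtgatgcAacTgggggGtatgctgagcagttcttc

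In most cases a single variant of a convergent clonotype was found. Among clonotypes with exactly 3 variants in a spleen (3421 summed over the 3 spleens), 44 had 1 of them in a kidney. Clonotype F (Trbv13-2, Trbj2-4) and clonotype G (Trbv5, Trbj1-1), each with 3 kidney UMIs in mouse 1, are shown because they differ in which variant was found.
Clonotype F in spleen 1, variant 1, 14 UMIs: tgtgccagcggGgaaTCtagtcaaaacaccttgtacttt
Clonotype F in spleen 1, variant 2, 2 UMIs: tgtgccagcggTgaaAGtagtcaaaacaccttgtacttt
Clonotype F in spleen 1, variant 3, 1 UMI: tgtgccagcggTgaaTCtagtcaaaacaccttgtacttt
Clonotype G in spleen 1, variant 1, 1 UMI: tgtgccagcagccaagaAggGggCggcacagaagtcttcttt
Clonotype G in spleen 1, variant 2, 1 UMI: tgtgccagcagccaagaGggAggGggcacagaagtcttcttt
Clonotype G in spleen 1, variant 3, 1 UMI: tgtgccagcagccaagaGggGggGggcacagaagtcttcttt

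For clonotype F the variant in the kidney was the first, which dominated the clonotype in the spleen with 14 UMIs. For clonotype G it was the second, which had 1 UMI in the spleen like both of the others. In a clonotype with Trbv1 and Trbj2-7 and one with Trbv1 and Trbj2-5, also with 3 kidney UMIs in mouse 1, the variant found in the kidney was the leading one, with 8 and 7 UMIs in the spleen. In clonotype F and in the one with Trbv1 and Trbj2-7, a variant of 1 UMI lay 1 base from the leading variant. That variant had at least 5 times as many UMIs, so both clonotypes fall below 3 variants after the merging described above.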

How the data were processed

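The data are 6 TCR-β libraries, made by 5′ RACE with UMIs from sorted CD4+ T cells. Clones were assembled by the authors with MiXCR, and the deposited values are raw counts of UMIs and raw counts of reads per clone. The deposited fractions of UMIs and of reads served to check the counts, and the deposited lowest quality score of each CDR3 was used for 1 comparison. The submitters' processing notes name GRCm38 and R 4.4.2.

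Clones with a stop codon or a frameshift (4.21% to 5.59% of UMIs) were left out, and the first listed V and J gene was taken. Inserted bases, trimming and D genes were read from the deposited segment ends. Gene names (36 of 36) and positions were matched to RefSeq's GRCm38.p6 annotation. The members and lists were chosen with earlier results of these data known. Named clonotypes are the 5 with the most variants per spleen and the 3 with the most kidney UMIs per mouse, of which the text gives the leading ones. Sequences are those of the 3 clonotypes with the most variants among the 215 convergent in all 3 spleens and of clonotypes with exactly 3 variants, 1 of them in a kidney. Trbv and Trbj genes named are the 5 with the largest change in each direction among those with an adjusted p under 0.05.

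Class means were compared within each library by exact sign-flip permutation tests over mice. Numbers of clonotypes per gene (at least 10 in all) were tested by edgeR 4.0.16 in R 4.3.3 with library sizes only and the mouse as a block. DESeq2 1.42.0, TMM normalization, other thresholds, merging of near-identical variants, equal depth, similar UMIs and leaving out each mouse were alternatives. The labels give a mouse for each library, which pairs kidney and spleen. Paired libraries deviated from their group's mean over 24 Trbv genes with a correlation of 0.284, 0.365 and 0.298 on the log2 scale and -0.209, 0.0402 and -0.359 on shares. The class and gene tests were tested on simulated data. Python 3.11.15 with pandas 2.3.3 and scipy 1.17.1 was used.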

Additional observations from a re-analysis of the deposited data

Results flagged for a closer look

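Among amino acid clonotypes with 6 to 10 UMIs in the spleen, convergent clonotypes were found less often than those with 1 variant in the kidney of the same mouse and more often in the kidneys of the other mice, in 3 of 3 mice each. The mean log2 ratios were -2.85 and 1.75. Their difference was -4.59, with a range over mice of -5.87 to -3.23 (exact two-sided sign-flip permutation test over 3 mice, p = 0.25, the smallest possible), and it rests on 27 convergent clonotypes and 106 with 1 variant found in the kidney of the same mouse. For the kidneys of the other mice it rests on fewer finds, 14, 16 and 9 of convergent clonotypes and only 2, 5 and 2 of those with 1 variant in mice 1, 2 and 3. It was singled out because the direction was opposite in every mouse, and the range of UMIs was chosen after the data were seen. The UMIs of a convergent clonotype were divided among 3 or more variants, so UMIs per nucleotide variant were not matched.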

How the results depend on the processing

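The mean number of convergent clonotypes per spleen, 1682, was 7553 with 2 or more variants, 216 with 5 or more, 265 with at least 2 UMIs per variant, 3944 for the CDR3 amino acid sequence alone and 842 when drawn to the smallest spleen. The log2 ratio found in the kidney of the same mouse, 2.97, turned to -0.0083 at 3 to 5 UMIs and, in ranges added after seeing the data, to -2.85 at 6 to 10 UMIs and -2.07 above 10. The number of Trbv genes called, 21, was 9 with 5 or more variants and 12 at 3 to 5 UMIs, and that of Trbj genes, 9, was 5 with 5 or more variants and 4 with at least 2 UMIs per variant. Trbv1 turned to -0.25 at 3 to 5 UMIs, Trbv3 to -0.0651 with 5 or more variants and Trbv31 to -0.39 with at least 2 UMIs per variant. The causes were not tested. Leaving out each mouse gave -0.488 to -0.438 amino acids for length, -1.20 to -1.17 inserted bases, log2 ratios of 0.33 to 0.39 for UMIs per variant, 2.68 to 3.17 for the same kidney, 4.06 to 4.29 for the other kidneys and 2.70 to 2.89 for the other spleens, and 16 to 19 Trbv and 7 to 9 Trbj genes. Without the replicate block (the pairing by mouse) 20 Trbv and 9 Trbj genes were called, and exact permutation of 3 against 3 values gave p = 0.1, its smallest, for 5 class comparisons and p = 0.2 for UMIs per variant. How many cells each library held is not given in the sources used here, and 693 to 1248 UMIs per kidney limit every kidney value.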
